A study of Homo sapiens with 3 samples.

Results

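Expression of 10 genes, chosen by symbol, was followed through the cell lines of the study. They form 3 growth factor systems of hepatocellular carcinoma (HCC) cells: FGF19 with its co-receptor KLB and the receptors FGFR1, FGFR2, FGFR3 and FGFR4, HGF with its receptor MET, and GAS6 with its receptor AXL. They are 10 of the 16149 genes listed in at least 1 library. The mRNA of 3 cultured lines had been sequenced, with 1 library per line. The parental cells were labelled as the human HCC line HCCLM3 with low metastasis ability, whereas the methods of the study describe a derivative of HCCLM3 that expresses red fluorescent protein and is highly metastatic. Subclone 1 was labelled with a higher ability to metastasise, to the lung. Subclone 2 was labelled with a dual ability, for lung and celiac lymph node. All lines grew in DMEM. The subclones of the study were each grown from 1 cell of lung or lymph node metastases in nude mice, so that each is 1 clone, and the labels do not say which clones were sequenced. Values are RPKM, which are reads scaled to gene length and to the total reads, so that levels of different genes can be compared. The libraries held 4488825 reads in parental cells, 4609696 in subclone 1 and 4725150 in subclone 2. Values in parentheses are exact 95% intervals of the reads and cover counting error only. No difference between lines could be tested with 1 library per line, and the comparisons are between libraries.

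FGF19 is a hormone-like fibroblast growth factor from the gut. It binds FGFR4 together with beta-klotho (KLB) on hepatocytes and lowers bile acid synthesis, and its gene is amplified in some HCC. HGF is secreted by mesenchymal cells as an inactive precursor, is cleaved outside the cell and activates MET, which drives growth and scattering of hepatocytes. GAS6 is a vitamin K-dependent ligand that bridges phosphatidylserine to AXL and its relatives TYRO3 and MERTK, together called TAM receptors.

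The receptors were found at very different levels, and the ligands were low or not listed. Of the 10 genes, 9 were listed in at least 1 library and 6 in all 3. MET, AXL, FGFR4 and FGFR3 were the 4 that averaged 1 RPKM or more over the libraries, as did 11370 genes. None of these 4 differed by 2-fold or more between any pair of libraries, on the log2 scale of RPKM plus 0.1. Of the 11370 genes, 6.72% differed by that much between subclone 1 and parental cells, 7.49% between subclone 2 and parental cells, and 2.81% between the subclones. HGF, which was low, was higher in both subclones, and KLB, also low, was higher in subclone 1, while its difference in subclone 2 was within counting error.

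**Figure D1:**
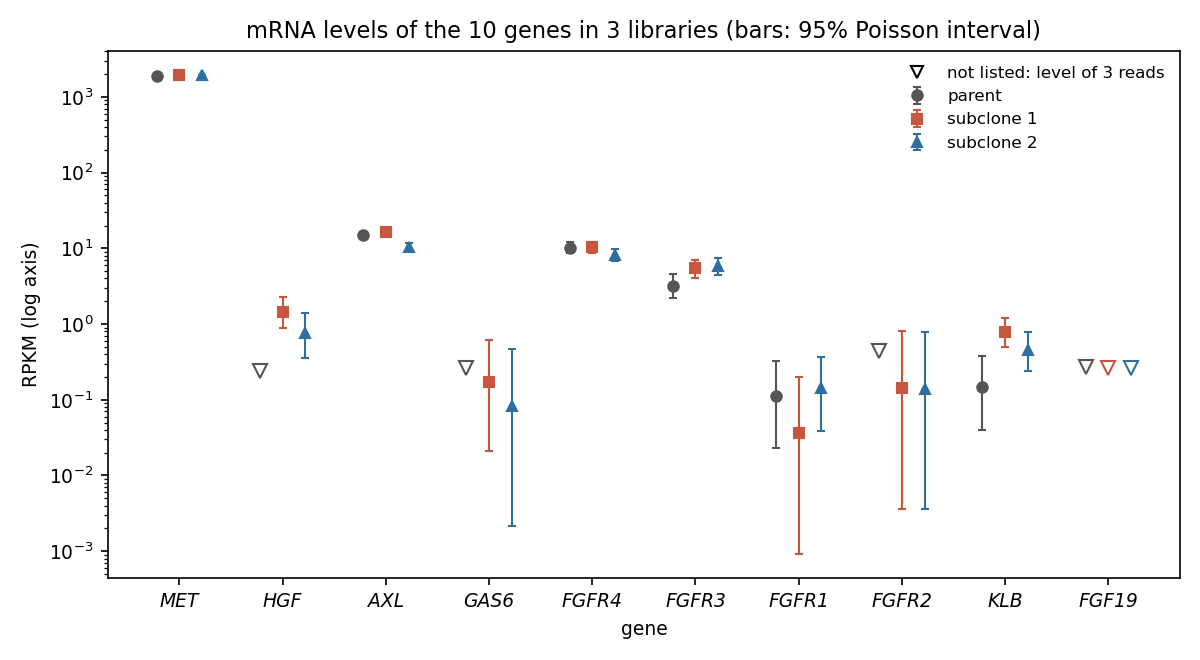
RPKM of the 10 genes (log axis) in parental cells, subclone 1 and subclone 2, 1 library each, with exact 95% Poisson intervals of the reads as bars. Open triangles stand at the level of 3 reads where a gene was not listed. MET lies between 1878 and 1949 RPKM, AXL, FGFR4 and FGFR3 between 3.20 and 16.6, and the other 6 genes at 1.46 or lower.

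MET, the receptor tyrosine kinase for HGF (Entrez gene 4233), was among the most abundant mRNAs of these cells. Its level was 1878 RPKM in parental cells (1862 to 1893 from 56436 reads), 1949 RPKM in subclone 1 (1933 to 1964 from 60142 reads) and 1941 RPKM in subclone 2 (1926 to 1957 from 61413 reads). It ranked 13, 13 and 12 among all genes in RPKM, and took 1.26%, 1.30% and 1.30% of the reads. By comparison, the median of the 11370 genes was 10.8, 10.9 and 11.2 RPKM. MET in subclone 1 was 1.04-fold (1.03 to 1.05) of the parental level, and in subclone 2 1.03-fold (1.02 to 1.05). The ratio of subclone 2 to subclone 1 was 0.996 (0.985 to 1.01). These differences are small, and the direction of the first and the last depended on the scaling. On division by ACTB, the log2 ratio of 0.05 in subclone 1 became -0.08, and that of -0.01 between the subclones became 0.12. The log2 ratio of subclone 2 over parental cells stayed positive under each scaling, from 0.011 to 0.11.

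The genes next to MET on chromosome 7 were abundant as well. In the RefSeq order of protein-coding genes, CAV2 and CAV1, the caveolins that coat membrane pits, come directly before MET. CAV2 had 2838 RPKM in parental cells, 2661 in subclone 1 and 2306 in subclone 2. CAV1 had 2449, 2554 and 1809 RPKM. Beyond them lie TES, a LIM protein of focal adhesions, with 323, 338 and 345 RPKM, and MDFIC, a regulator of transcription, with 193, 155 and 154. CAPZA2, a subunit of the actin capping protein just after MET, had 106, 148 and 146 RPKM. Levels were lower past CAPZA2. ST7, the next gene, had 8.25, 8.91 and 9.48 RPKM, ASZ1 had at most 0.0743, and WNT2, CFTR and CTTNBP2 were not listed in any library. TFEC, a transcription factor of the MITF family between MDFIC and TES, had 1.28 RPKM in parental cells, 5.86 in subclone 1 and 4.28 in subclone 2. It was 4.59-fold (3.22 to 6.69) of the parental level in subclone 1 and 3.35-fold (2.32 to 4.94) in subclone 2. Of the 14 genes past the filter in the window of 12 on each side, TFEC alone was 2-fold or more higher in subclone 1, and TFEC and TSPAN12 were in subclone 2, where 4.9% and 5.33% of the 11370 genes were. TSPAN12, a tetraspanin, had 0.9502, 1.85 and 2.63 RPKM. It was under 1 RPKM in parental cells and passed the filter on the mean through the subclones, where it was high. No counting interval was computed for it. Copy number was not measured here.

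**Figure D2:**
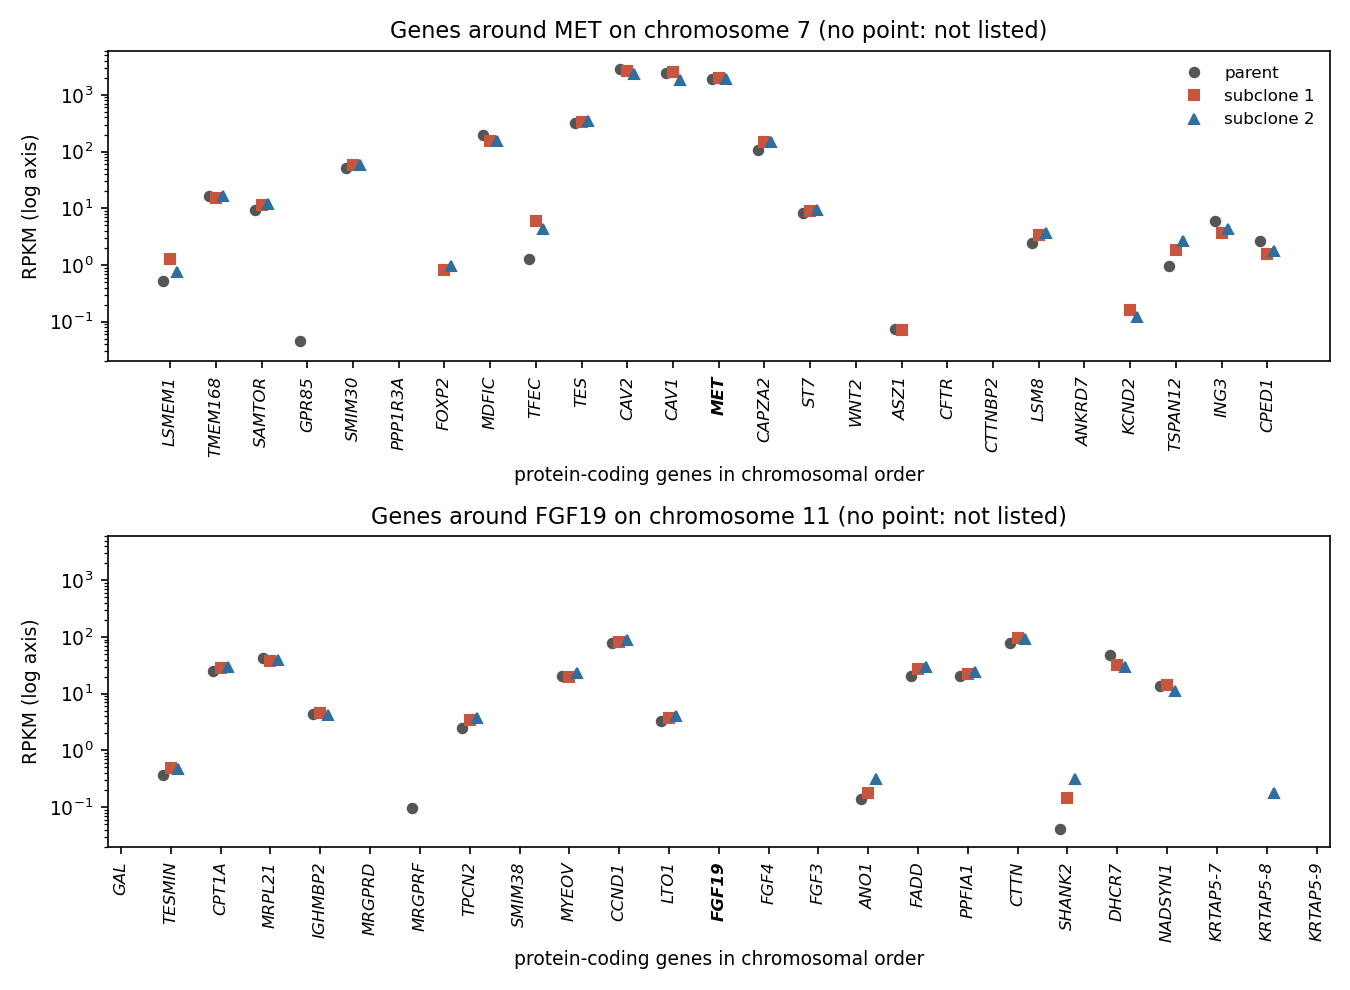
RPKM (log axis) of the protein-coding genes around MET on chromosome 7 and around FGF19 on chromosome 11, with 12 genes on each side in chromosomal order and 1 point per library. CAV2, CAV1 and MET lie between 1809 and 2838 RPKM and ST7 at 9.48 or lower, while FGF19, FGF4 and FGF3 have no point and CCND1 and CTTN lie between 78.2 and 95.6 RPKM.

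HGF, the ligand of MET (Entrez gene 3082), was not listed in parental cells. It had 1.46 RPKM in subclone 1 (0.880 to 2.28 from 19 reads). Subclone 2 had 0.750 RPKM (0.360 to 1.38 from 10 reads). A count of 0 allows up to 3 reads, or 0.237 RPKM in parental cells. The measured levels were 6.17-fold of that in subclone 1 and 3.17-fold in subclone 2, without the counting error of the 19 and 10 reads. With that error included, the exact interval of the fold over parental cells started at 4.54 in subclone 1 and at 2.13 in subclone 2. The ratio of subclone 2 to subclone 1 was 0.513 (0.213 to 1.16). The number of reads of HGF is uncertain by a factor of 2, because its fitted length of 2820 bases could also be 5640. At 5640 the reads would be 38 and 20, and the folds over 3 parental reads 12.3 and 6.33, with exact intervals that start at 9.55 and 4.69. The interval of the ratio between the subclones would be 0.283 to 0.905, so that the reads do not settle whether the subclones differed beyond counting error. Of 1446 genes listed in a subclone but not in parental cells, 481 were listed in both subclones. HGF was among 11 of these with 10 reads or more in each, where 10 is its own number of reads in subclone 2. Its place in this set was thus fixed by the cutoff, which shares the uncertainty of its fitted length.
Mesenchymal cells normally make HGF, and 7 of 13 fibroblast and stellate cell markers were listed. Their summed level was 15.9 RPKM in parental cells, 32.2 in subclone 1 and 25.8 in subclone 2. Most of it was LUM, a matrix proteoglycan, with 10.1, 24.0 and 21.0 RPKM. DCN, another such proteoglycan, had 0.773, 4.42 and 2.75 RPKM, and the collagen genes COL3A1 and COL1A1 had 4.42, 2.21 and 0.463 RPKM and 0.338, 0.403 and 0.0357 RPKM. PDGFRA, PDGFRB, POSTN, ACTA2, FAP and DES were at 0. The part of these markers in the level of HGF was not tested. These are cultured lines measured in bulk, where the share of cells that make an mRNA and its amount per cell cannot be told apart. Endothelial markers summed to 5.11 RPKM in parental cells, 12.05 in subclone 1 and 7.71 in subclone 2. Most of this was PECAM1, with 3.33, 9.81 and 4.46 RPKM, and KDR, with 1.36, 1.93 and 3.08. Leukocyte markers summed to 76.2 RPKM in parental cells, 115 in subclone 1 and 101 in subclone 2, nearly all of it CD68, while PTPRC, the pan-leukocyte gene, was at 0.0836 RPKM in parental cells and 0 in the subclones.

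Some genes that control HGF activation differed between the libraries. HGF is cut to its active form by serine proteases, and of the 8 measured here PLAU and PLAT passed the filter of 1 RPKM. PLAT, the tissue plasminogen activator, had 8.64 RPKM in parental cells, 2.53 in subclone 1 and 3.13 in subclone 2. This was 0.293-fold (0.197 to 0.426) of the parental level in subclone 1 and 0.363-fold (0.254 to 0.512) in subclone 2. PLAU, the urokinase, had 10.1, 8.90 and 7.34 RPKM. ST14 (matriptase) and HPN (hepsin) were below 1 RPKM in each library, and no fold was computed for them. Unlike PLAT, both had their lowest level in parental cells. HPN had 0.0933, 0.817 and 0.886 RPKM, from 1, 9 and 10 reads. ST14 had 0.201, 0.719 and 0.319 RPKM, from 3, 11 and 5 reads. HGFAC, the HGF activator, was not listed.
SPINT1 encodes HAI-1, an inhibitor of these proteases. It had 1.26 RPKM in parental cells, 4.72 in subclone 1 and 8.26 in subclone 2. This was 3.76-fold (2.06 to 7.32) of the parental level in subclone 1 and 6.58-fold (3.74 to 12.5) in subclone 2. SPINT2, its relative, had 0.736, 0.955 and 1.51 RPKM. SERPINA5, the protein C inhibitor, had 0.578 RPKM in parental cells, 3.85 in subclone 1 and 0.915 in subclone 2, and was high in subclone 1 alone, at 6.65-fold (2.81 to 19.2) of the parental level. SERPINA5 passed the filter on the mean through subclone 1, the library where it was high, and so had to differ. SPINT2, with 2.06-fold (0.730 to 6.604) of the parental level in subclone 2, was within counting error there.
None of the 5 partners and relatives of MET past the filter differed by 2-fold or more. With 5 genes this is near the shares of 6.72%, 7.49% and 2.81% over all genes in the 3 comparisons. CD44, a co-receptor of MET, had 142, 165 and 136 RPKM. The integrin chains ITGA6 and ITGB4, which pair with each other, had 78.4, 55.5 and 59.4 RPKM and 18.7, 19.4 and 28.5 RPKM. MST1R, the closest relative of MET, had 0.186, 0.0453 and 0.398 RPKM.

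AXL (Entrez gene 558) was next to MET in abundance. Its level was 14.9 RPKM in parental cells (13.3 to 16.6 from 317 reads), 16.6 RPKM in subclone 1 (14.9 to 18.4 from 362 reads) and 10.4 RPKM in subclone 2 (9.15 to 11.9 from 234 reads). Subclone 2 was the lowest, at 0.701-fold (0.590 to 0.833) of the parental level and 0.631-fold (0.533 to 0.745) of subclone 1, and its interval overlapped neither of the others. The log2 ratio of -0.66 between the subclones stood at percentile 3.33 of the 11370 genes. AXL was thus lower in subclone 2 than in subclone 1 by 1.5-fold or more, as were 4.11% of the 11370 genes, while 4.75% were higher by as much. This was lost on division by ACTB or by GAPDH, which both gave a log2 ratio of -0.54, short of 1.5-fold. Subclone 1 was at 1.11-fold (0.954 to 1.30) of the parental level, a difference within counting error.
GAS6, the main ligand of AXL, was at the edge of detection. It had no reads in parental cells, 2 reads (0.172 RPKM) in subclone 1 and 1 read (0.0839 RPKM) in subclone 2, and no fold is given. PROS1, the anticoagulant protein S that binds TYRO3 and MERTK, had 3.53 RPKM in parental cells, 11.8 in subclone 1 and 6.005 in subclone 2. This was 3.33-fold (2.47 to 4.56) of the parental level in subclone 1 and 1.70-fold (1.22 to 2.39) in subclone 2. TYRO3 had 5.01, 7.81 and 7.19 RPKM and MERTK 8.04, 6.15 and 7.34. AXL held 53.3% of the summed RPKM of the TAM receptors in parental cells, 54.3% in subclone 1 and 41.8% in subclone 2. None of the 4 genes of vitamin K-dependent carboxylation differed by 2-fold or more, which for 4 genes is near the shares of 6.72%, 7.49% and 2.81% over all genes. GGCX, the carboxylase that acts on GAS6 and PROS1, had 13.7, 18.9 and 16.1 RPKM, and VKORC1, which recycles vitamin K, had 39.8, 62.7 and 52.8. The most abundant gene of that list was NQO1, a quinone reductase, with 554, 589.7 and 643 RPKM.

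FGFR4 (Entrez gene 2264), the main FGF receptor of hepatocytes, was the most abundant FGF receptor in each library. Its level was 10.2 RPKM in parental cells (8.57 to 12.01 from 141 reads), 10.3 RPKM in subclone 1 (8.74 to 12.2 from 147 reads) and 8.10 RPKM in subclone 2 (6.70 to 9.70 from 118 reads). The intervals overlapped, and the level was 1.02-fold (0.8003 to 1.29) of parental cells in subclone 1 and 0.795-fold (0.617 to 1.02) in subclone 2, and these reads do not show a difference. The log2 ratio of 0.02 in subclone 1 became -0.11 on division by ACTB and -0.03 on division by GAPDH.
FGFR3 (Entrez gene 2261) was higher in both subclones. Its level was 3.20 RPKM in parental cells (2.18 to 4.55 from 31 reads), 5.44 RPKM in subclone 1 (4.08 to 7.09 from 54 reads) and 5.79 RPKM in subclone 2 (4.41 to 7.47 from 59 reads). Subclone 1 was at 1.70-fold (1.07 to 2.73) and subclone 2 at 1.81-fold (1.15 to 2.89) of parental cells, at percentiles 91.9 and 92.5 of the 11370 genes. Both passed 1.5-fold, as 11.6% and 12.7% of the 11370 genes did in this direction, while 7.46% and 7.3% were lower by as much. The ratio of subclone 2 to subclone 1 was 1.07 (0.724 to 1.57). The reads of FGFR3 are uncertain in the same way, with a fitted length of 2155 bases that could be 4310. At 4310 the intervals over parental cells would be 1.23 to 2.36 in subclone 1 and 1.32 to 2.50 in subclone 2.
FGFR1 and FGFR2 were near the limit of detection. FGFR1 had 0.112, 0.0364 and 0.142 RPKM, from 3, 1 and 4 reads, and its ratio of subclone 2 to parental cells was 1.27 (0.214 to 8.65). FGFR2 was not listed in parental cells and had 1 read in each subclone by its fitted length, at 0.144 and 0.141 RPKM. FGFR4 held 75.4% of the summed RPKM of the 4 receptors in parental cells, 64.8% in subclone 1 and 57.1% in subclone 2, and FGFR3 held 23.7%, 34.1% and 40.9%.

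**Figure D3:**
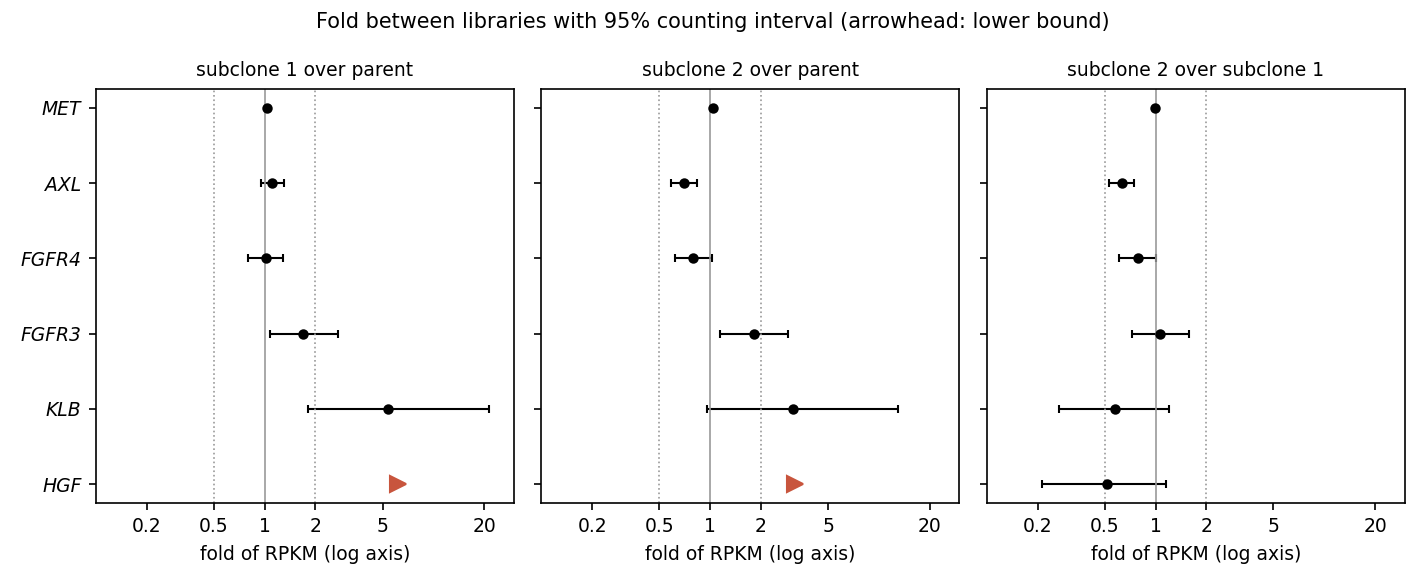
Fold of RPKM between libraries (log axis) for 6 of the 10 genes, with exact 95% counting intervals and dotted lines at 2-fold in either direction. Arrowheads stand at the level of HGF over 3 reads in parental cells, where it was not listed. They leave out the counting error of the subclone. MET lies near 1 in each panel, AXL lies below 1 in subclone 2, FGFR3 lies above 1 in both subclones over parental cells, and KLB reaches 5.36 in subclone 1. The arrowhead of HGF in subclone 1 is at 6.17.

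KLB, the co-receptor that gives FGFR4 its affinity for FGF19 (Entrez gene 152831), was low in each library. Its level was 0.147 RPKM in parental cells (0.0399 to 0.375 from 4 reads), 0.785 RPKM in subclone 1 (0.492 to 1.19 from 22 reads) and 0.453 RPKM in subclone 2 (0.241 to 0.774 from 13 reads). Subclone 1 was at 5.36-fold (1.82 to 21.4) of parental cells, while the interval of subclone 2 included 1, at 3.09-fold (0.954 to 12.998). FGF19 (Entrez gene 9965) was not listed in any library and was taken as 0, which allows up to 0.273, 0.266 and 0.259 RPKM if the gene was among those counted. The files read here do not show whether it was.
Several genes that surround FGF19 on chromosome 11 were expressed. CCND1, the cyclin D1 gene often amplified together with FGF19, had 78.2, 82.0 and 88.9 RPKM, and CTTN, the actin-binding cortactin, had 78.5, 95.6 and 90.5. FADD, an adaptor of death receptors, had 20.3, 26.9 and 29.8 RPKM. FGF4 and FGF3, the genes directly after FGF19, were not listed, and ANO1, a chloride channel, had at most 0.308 RPKM. None of the 12 listed neighbours past the filter differed by 2-fold or more. With 12 genes this is not far from the shares of 6.72%, 7.49% and 2.81% over all genes in the 3 comparisons.
Of 6 genes of bile acid metabolism that FGF19 acts on or that control its response, NR1H4 passed the filter. This bile acid receptor, also called FXR, had 1.61 RPKM in parental cells, 10.8 in subclone 1 and 9.34 in subclone 2. This was 6.71-fold (3.32 to 15.4) of the parental level in subclone 1 and 5.81-fold (2.85 to 13.4) in subclone 2. CYP7A1, the rate-limiting enzyme of bile acid synthesis, had 1 read in subclone 2 and was not listed elsewhere. CYP8B1, a sterol hydroxylase of the same pathway, had 0.0564, 0.330 and 0.107 RPKM, and ABCB11, the bile salt export pump, 0.513, 0.409 and 0.576. NR0B2 and the bile acid importer SLC10A1 were not listed.
As a sum, hepatocyte markers were higher in both subclones, as NR1H4 was, and as KLB was in subclone 1. Of 11 markers, 10 were listed, and they summed to 24.8 RPKM in parental cells, 113 in subclone 1 and 107 in subclone 2. ALB, the albumin gene, had 2.46, 49.5 and 68.8 RPKM, and FGB, a fibrinogen chain, 1.66, 14.5 and 5.60. TF had 5.71, 30.3 and 5.88 RPKM and was high in subclone 1 alone, with subclone 2 at 1.03-fold (0.637 to 1.67) of the parental level. APOB had 0.300, 1.23 and 4.17 RPKM, and AFP 2.41, 4.16 and 4.27. HNF4A, a transcription factor that defines hepatocytes, had 11.7, 11.9 and 16.0 RPKM, TTR was listed in subclone 2 alone, and CYP3A4 was at 0. The part of these markers in the levels of KLB and NR1H4 was not tested.

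Of the 21 other FGF ligands, 8 were listed and 2 passed the filter. FGF2, a broad ligand of FGF receptors, had 4.14, 3.43 and 3.25 RPKM. FGF13, a member of the family that stays inside the cell, had 10.5 RPKM in parental cells, 3.05 in subclone 1 and 10.3 in subclone 2, and was low in subclone 1 alone, at 0.291-fold (0.197 to 0.422) of the parental level. FGFBP1, which carries FGFs in the matrix, had 3.11, 1.25 and 2.26 RPKM, and its level of 0.401-fold (0.141 to 1.02) in subclone 1 was within counting error of parental cells. FGFRL1, a receptor without a kinase, had 40.1, 36.4 and 39.2 RPKM.
FGFs bind their receptors on heparan sulfate. SULF2, the extracellular sulfatase that trims it, had 3.36 RPKM in parental cells, 0.306 in subclone 1 and 0.498 in subclone 2. This was 0.0913-fold (0.0323 to 0.210) of the parental level in subclone 1 and 0.148-fold (0.0679 to 0.291) in subclone 2. SULF2 passed the filter on the mean through parental cells, the library where it was high, and so had to be lower in the subclones. GPC1, a glypican core protein, had 78.5 RPKM in parental cells, 49.0 in subclone 1 and 29.7 in subclone 2, and was at 0.378-fold (0.341 to 0.419) in subclone 2. GPC6, another glypican, had 3.60, 9.39 and 6.16 RPKM and was at 2.61-fold (2.10 to 3.26) in subclone 1. HSPG2, the basement membrane core protein perlecan, had 5.44, 10.5 and 13.03 RPKM and was at 2.40-fold (2.11 to 2.72) in subclone 2. HS3ST1, a sulfotransferase, had 5.33, 4.97 and 11.95 RPKM and was high in subclone 2 alone, at 2.24-fold (1.89 to 2.68) of parental cells. Of the 6 core proteins and 11 enzymes past the filter, these 5 genes were the ones that differed by 2-fold or more. The count is over all 3 comparisons together, and it includes SULF2. In subclone 1 over parental cells the calls were GPC6 and SULF2. In subclone 2 over parental cells they were GPC1, HSPG2, HS3ST1 and SULF2, and between the subclones HS3ST1 alone. Of the 11370 genes, 6.72%, 7.49% and 2.81% differed by as much in these comparisons, each taken singly, so that the joint count of 5 has no matching share. GPC3, a glypican common in HCC, was not listed in any library.
Adaptors and feedback inhibitors act below the receptors. None of the 9 adaptors and none of the 6 feedback inhibitors past the filter differed by 2-fold or more, a count of 0 that is not far from the shares of 6.72% and 7.49% over all genes. SHC1, an adaptor shared by these receptors, had 126, 156 and 132 RPKM, and GRB2, which links them to SOS proteins, had 96.0, 102 and 108. DUSP6, a phosphatase of ERK and the most abundant of the feedback genes, had 52.2, 66.6 and 61.0 RPKM. The Sprouty genes SPRY4 and SPRY2, which curb receptor signalling, were lower in subclone 1, at 0.577-fold (0.441 to 0.750) and 0.656-fold (0.465 to 0.921) of the parental level. Both passed 1.5-fold there, as 7.46% of the 11370 genes did in this direction. In subclone 2 SPRY4 was at 0.720-fold (0.563 to 0.920), and SPRY2 at 0.726-fold (0.521 to 1.01) was within counting error. DUSP6 went the other way, at 1.27-fold (1.15 to 1.41) in subclone 1 and 1.17-fold (1.05 to 1.30) in subclone 2. SPRY1 was near the parental level in both, at 1.07-fold (0.854 to 1.34) and 1.06-fold (0.849 to 1.33). The median log2 ratio over parental cells was -0.09 in subclone 1 and -0.18 in subclone 2 for the feedback inhibitors, and 0.00 and 0.04 for the 11370 genes.
Over the 14 lists of partner and neighbour genes, 74 of 129 genes passed the filter. In subclone 1, 8.11% of them were 2-fold or more higher than in parental cells and 5.41% lower, beside 4.9% and 1.82% of the 11370 genes. In subclone 2 the shares were 6.76% and 4.05%, beside 5.33% and 2.16%. Between subclone 2 and subclone 1 they were 2.70% and 1.35%, beside 1.42% and 1.39%. SULF2 and SERPINA5 are in these shares although each passed the filter through 1 library alone. FGFBP1 is in them for subclone 1 although it was within counting error there. The lists were chosen with earlier results of these data known, so that a share above that of the 11370 genes cannot be read as a result about them.

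**Figure D4:**
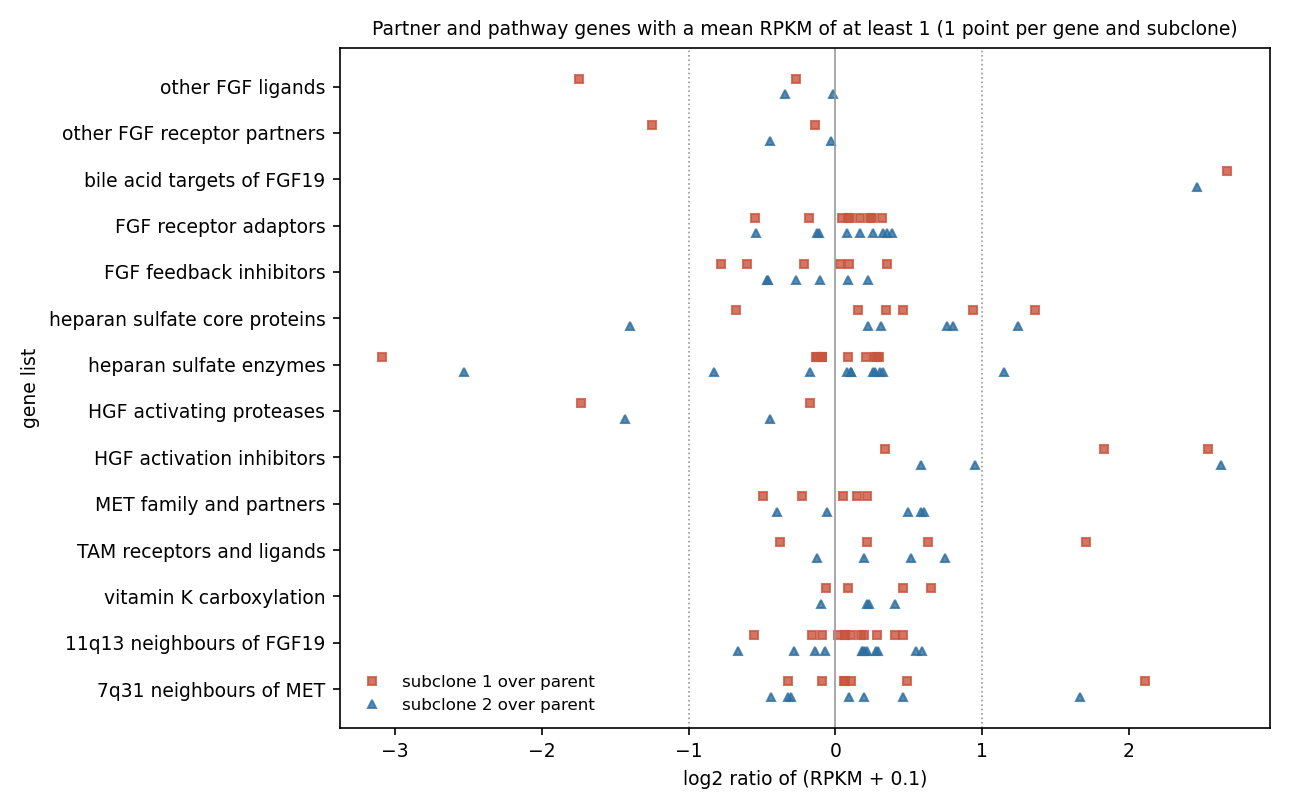
Log2 ratio of RPKM plus 0.1 over parental cells for the 74 partner and neighbour genes that averaged 1 RPKM or more, 1 point per gene for subclone 1 and for subclone 2, grouped by list, with dotted lines at 2-fold. NR1H4, SPINT1, SERPINA5 and TFEC lie at 1.83 or more in subclone 1, SULF2 lies at -3.09 and -2.53, and the adaptors and feedback inhibitors stay within the dotted lines.

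The order at the top was the same in each library: MET, AXL, FGFR4 and FGFR3. In parental cells and subclone 1 their intervals did not overlap. In subclone 2 those of AXL and FGFR4 overlapped, as did those of FGFR4 and FGFR3. HGF and KLB came next in both subclones, with overlapping intervals. The pattern of each of these 4 genes over the 3 libraries was compared with that of all 11370 genes, as the distance between log2 values centred on their mean. Among the nearest were CRYZL1 and VARS2 for MET, ANAPC10, LOC541471 and COX7A2L for AXL, FAM46A, RNF2 and ITGA2 for FGFR4, and PBXIP1, SERINC2 and MFSD3 for FGFR3. Such likeness is common with 3 libraries: 1301 genes lay within 0.1 of MET, 212 of FGFR4, 116 of FGFR3 and 54 of AXL.

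RefSeq promoter windows of GRCh38.p14 were used for 8 of the 10 genes. FGF19 had no window, and FGFR1 was left out by choice without a search. The 250 bases before the start are shown for MET and FGFR3, which passed the filter, and for HGF and KLB, which did not. Each is written 5′ to 3′ along the gene. Capitals mark GGGCGG, the GC box, on either strand, so that it reads CCGCCC on the other.
MET, chr7:116671946-116672195, plus strand: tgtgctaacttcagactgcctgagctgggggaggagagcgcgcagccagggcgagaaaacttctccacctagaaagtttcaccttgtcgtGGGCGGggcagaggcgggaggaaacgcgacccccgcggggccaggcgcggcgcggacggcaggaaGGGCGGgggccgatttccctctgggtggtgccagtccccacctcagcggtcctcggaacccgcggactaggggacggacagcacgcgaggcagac
FGFR3, chr4:1793043-1793292, plus strand: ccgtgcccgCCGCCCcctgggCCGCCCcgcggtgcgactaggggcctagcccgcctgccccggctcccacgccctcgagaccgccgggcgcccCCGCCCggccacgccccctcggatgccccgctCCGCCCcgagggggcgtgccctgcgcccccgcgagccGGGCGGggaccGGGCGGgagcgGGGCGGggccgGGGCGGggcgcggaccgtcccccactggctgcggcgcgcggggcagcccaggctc
HGF, chr7:81770048-81770297, minus strand: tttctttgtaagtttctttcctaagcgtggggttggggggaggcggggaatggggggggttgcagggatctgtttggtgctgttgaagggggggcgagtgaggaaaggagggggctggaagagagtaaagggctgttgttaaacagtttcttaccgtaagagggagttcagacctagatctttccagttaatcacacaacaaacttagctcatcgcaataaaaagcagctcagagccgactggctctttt
KLB, chr4:39406680-39406929, plus strand: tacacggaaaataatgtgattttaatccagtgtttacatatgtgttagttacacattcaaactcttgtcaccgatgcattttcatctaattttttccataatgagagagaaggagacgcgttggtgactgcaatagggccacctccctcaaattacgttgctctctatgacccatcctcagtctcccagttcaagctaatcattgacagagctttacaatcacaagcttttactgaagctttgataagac
The GC box was found 2 times for MET and 8 times for FGFR3, and these letters were not in the windows of HGF and KLB. Of 35116 promoter windows, 42.6% held it. MET and FGFR3 had 24 and 40 CpG dinucleotides, HGF and KLB 6 and 5, and the median of all windows was 11. The other members were mixed. GAS6, at the edge of detection, had 3 GC boxes and 31 CpG dinucleotides. AXL, well above the filter, had 2 and 0 GC boxes and 4 and 13 CpG dinucleotides in its 2 windows. FGFR4, also past the filter, had 7 and 0 GC boxes and 24 and 2 CpG dinucleotides in its 2 windows. FGFR2, near the limit of detection, had 3 GC boxes and 42 CpG dinucleotides in 1 of its 5 windows. Its other windows had at most 1 GC box and 7 CpG dinucleotides. TATAAA, in 10.7% of all windows, was in none of the 4 shown, and GTTAAT, in 6.23%, was found 1 time, for HGF.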

How the data were processed

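The mRNA of 3 cultured lines was measured, with 1 library each, from Trizol RNA and the TruSeq kit of Illumina. Per gene, the authors deposited RPKM, by Entrez number and symbol. The submitters' processing notes name hg19, and the aligner, the counting tool, the annotation, strand handling and read filters were not given in the sources used here. Genes without a row were set to 0. The 10 genes and all gene lists were chosen with earlier results of these data known.

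Reads were recovered from the RPKM. The total reads of a library were the number that made the RPKM steps of single-read genes whole gene lengths. The length of a gene was the smallest that gave whole reads in each library, or a multiple of it nearer to a GENCODE 29 transcript, with small multiples favoured. That weighting was revised with the values in view, since earlier weightings gave more reads than the totals hold. The reads found came to 98.2% of the total in each library. Where reads share a divisor they may be understated, which widens the intervals, as for HGF and FGFR3. Whole reads were found for 97.9% of the 11370 genes that averaged 1 RPKM or more, a filter used for every count of genes. The recovery was tested on simulated data. For FGF19, which has no fitted length, the longest RefSeq-linked transcript was used.

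Ratios are log2 of RPKM plus 0.1, which understates changes of low genes, and folds in the text are ratios of RPKM. Poisson intervals for levels and Clopper-Pearson intervals for folds are exact at 95%, and reads that come from 1 molecule are not told apart. No p-value was computed. The genes named were the 10 genes, list genes at least 2-fold different in any comparison, the most abundant gene of a list, the genes that define it and the 3 genes nearest in pattern, of which 1 is not reported here. Other genes were named after their values were seen, and so were the 12 genes on each side of MET and FGF19, the 1.5-fold calls of FGFR3 and AXL, the marker genes beyond the sums, and the reads set for HGF. Alternatives are given in the closing section. Python 3.11.15, numpy 2.4.6, pandas 2.3.3, scipy 1.17.1 and matplotlib 3.10.9 were used.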

Additional observations from a re-analysis of the deposited data

Results flagged for a closer look

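AXL and FGFR4 were marked because their values lay on opposite sides of parental cells in the 2 subclones, a difference that was not tested and rests on 1 library each. For AXL the log2 ratio was 0.15 for subclone 1 over parental cells and -0.51 for subclone 2, and the 95% counting interval of the direct ratio between the subclones ended below 1. For FGFR4 it was 0.0216 for subclone 1 and -0.33 for subclone 2, and both intervals included 1.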

How the results depend on the processing

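Of 136 values of the log2 ratios of the 10 genes under the scaling and pseudocount alternatives, 126 stayed inside the 95% counting interval. The others were KLB in subclone 1 over parental cells, which went to 0.64 with a pseudocount of 1, and MET, whose intervals are narrow at its depth. For MET in subclone 1 over parental cells, ACTB gave -0.079 and GAPDH -0.00093. For subclone 2 over parental cells, centring on the median gave 0.011, the upper quartile 0.012 and GAPDH 0.11. For subclone 2 over subclone 1, centring gave -0.039, the upper quartile -0.055, ACTB 0.12 and GAPDH 0.11, so that the sign turned with ACTB and with GAPDH. Division by ACTB moved the median of all genes in subclone 1 over parental cells by -0.13, and in subclone 2 over subclone 1 by 0.12, as GAPDH did. FGFR4 in subclone 1 over parental cells also changed sign, to -0.11 with ACTB and -0.03 with GAPDH, and no other ratio of the 10 genes did. AXL in subclone 2 over subclone 1 fell short of 1.5-fold with ACTB and with GAPDH, at -0.54 in each.
The numbers of genes past 2-fold, higher and lower, moved with the filter, the pseudocount and the fold. For subclone 1 over parental cells, subclone 2 over parental cells and subclone 2 over subclone 1, a pseudocount of 1 gave 347 and 117, 380 and 150, and 80 and 77, no filter gave 1523 and 884, 1553 and 941, and 842 and 902, a mean RPKM of at least 5 gave 233 and 71, 253 and 93, and 43 and 46, and 1.5-fold gave 1317 and 848, 1444 and 830, and 540 and 467. With ACTB, 328 genes were lower in subclone 1 than in parental cells, and the share of calls that were higher went from 72.9% to 57.8%. For subclone 2 over subclone 1 that share went from 50.5% to 64.0% with ACTB and 62.6% with GAPDH. The cause was not tested beyond the construction of each setting.
Reads in place of RPKM, which weigh long genes more, moved 9 of the 21 receptor shares beyond counting error. AXL became 58.9% of the TAM receptors in parental cells, 59.4% in subclone 1 and 47.2% in subclone 2, and MERTK 24.3% in parental cells and 16.9% in subclone 1. FGFR3 became 26.6% of the FGF receptors in subclone 1 and 32.4% in subclone 2, and FGFR4 72.4% and 64.8%. These shares depend on the fitted length. Doubling the length of FGFR3 or HGF was added after seeing the data. With it FGFR3 became 42.0% and 49.0% by reads, above its RPKM shares in place of below, FGFR4 68.4% in parental cells, 57.2% in subclone 1 and 49.0% in subclone 2. The fold of HGF over 3 parental reads, as log2, became 3.62 in subclone 1 and 2.66 in subclone 2.
Of the values compared, KLB in parental cells rests on 4 reads and HGF in subclone 2 on 10, and FGFR1, FGFR2 and GAS6 had at most 4 reads in any library. No paired analysis was possible because each line has 1 library, and no library could be left out.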
